A study of Mus musculus with 2 samples.

Results

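The genes described here are 9 components of Toll-like receptor signalling: the receptors Tlr2, Tlr3, Tlr4, Tlr7, Tlr9 and Tlr13, the co-receptors Cd14 and Ly96, and the adaptor Myd88. They were taken by name, as the rows with those symbols, so 9 of the 27998 genes in the count tables are covered. The choice was made with earlier results of these data known. Their unique molecular identifiers (UMIs, tags that mark single captured RNA molecules) were read in sorted microglia, macrophages that reside in brain tissue. They come from 1 library of the medial corpus callosum and 1 library of the lateral corpus callosum. Both libraries came from C57Bl6 mice with the genotype label CX3CR1 on a diet with cuprizone for 4 weeks. This copper-binding toxin causes loss of oligodendrocytes and demyelination in the corpus callosum, a white matter tract. Demyelinating treatment was thus common to both libraries, and no library from untreated mice was analysed here. The sources used here name neither the allele behind the genotype label nor the number of mice per library nor the sorting gate. GentleMACS was used for dissociation, per the labels' protocols, and sorted cells went uncultured into droplet-based 3' libraries.

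Toll-like receptors recognise conserved microbial molecules and some products of damaged cells. Tlr2 and Tlr4 do so at the cell surface and Tlr3, Tlr7, Tlr9 and Tlr13 in endosomes. Except for Tlr3, which signals through the adaptor Ticam1, these receptors recruit Myd88 and activate NF-kB, and microglia are the main cells of the brain known to carry them. Cd14 hands lipopolysaccharide and other lipid ligands to Tlr4 and Tlr2, and Ly96 is the subunit of the Tlr4 complex that binds lipopolysaccharide.

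Cells were barcodes with at least 2400 UMIs and at most 10% of UMIs from mitochondrial genes: 2131 in the medial library and 2308 in the lateral library. Medial cells held 23442512 UMIs in all, at a median of 10732 each, and lateral cells 23047682, at a median of 9694 each. The 10 microglial marker genes were all detected and together took 106 of every 10000 UMIs in medial and 110 in lateral cells. Markers of border macrophages took 0.468 per 10000 UMIs in medial and 0.358 in lateral cells, those of monocytes 0.0196 and 0.00911, and those of neutrophils 0.0124 and 0.0139. Each region has 1 library, so there is no replicate, no test between regions and no p-value, and every 95% interval covers counting error only. The libraries shared 7 cell barcodes, against 6.67 given by the product of their barcode shares.

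Promoter sequences from the RefSeq table (GRCm38.p6) were found for 5 of the 9 genes. They are shown for Tlr2, Tlr3 and Myd88, which later stand out along cell states and each hold a match to a searched motif; those of Tlr4, Tlr7, Cd14 and Ly96 were not in the table. Each run covers 250 bases before to 30 after the start annotated in RefSeq, 5′ to 3′ on the gene's own strand. Positions count from 1 at the first transcribed base by that start and backwards from -1. Capitals mark matches to the NF-kB motif in Tlr2 and Tlr3 and to the interferon-stimulated response element (ISRE, GAAANNGAAA) in Myd88.
Tlr2 promoter, chr3:83841579-83841858, minus strand: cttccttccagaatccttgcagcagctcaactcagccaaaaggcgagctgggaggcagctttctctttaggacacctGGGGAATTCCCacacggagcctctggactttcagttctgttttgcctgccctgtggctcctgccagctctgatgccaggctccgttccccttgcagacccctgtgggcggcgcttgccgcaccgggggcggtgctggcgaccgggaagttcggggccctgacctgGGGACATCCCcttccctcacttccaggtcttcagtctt
Tlr3 promoter, chr8:45410351-45410630, minus strand: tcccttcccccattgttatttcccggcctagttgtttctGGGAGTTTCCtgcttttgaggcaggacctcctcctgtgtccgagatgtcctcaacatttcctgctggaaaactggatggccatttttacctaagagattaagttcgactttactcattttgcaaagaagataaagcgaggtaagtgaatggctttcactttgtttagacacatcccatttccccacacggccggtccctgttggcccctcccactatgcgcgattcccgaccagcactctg
Myd88 promoter, chr9:119339989-119340268, minus strand: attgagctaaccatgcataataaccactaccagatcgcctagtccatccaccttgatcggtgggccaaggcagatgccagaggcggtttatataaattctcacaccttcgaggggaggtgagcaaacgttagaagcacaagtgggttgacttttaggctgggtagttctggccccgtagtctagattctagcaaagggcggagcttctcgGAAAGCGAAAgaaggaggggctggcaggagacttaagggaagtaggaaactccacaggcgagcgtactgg

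In the Tlr2 promoter the NF-kB matches lie at -173 to -163, where matches starting 1 base apart overlap, and at -8 to 2. The match in the Tlr3 promoter lies at -211 to -202. The ISRE match in the Myd88 promoter lies at -40 to -31, and none was found in the window of Tlr3. On both strands, 8.46% of 32851 promoters held the NF-kB motif and 3.44% the ISRE. The Tlr9 promoter held an AP-1 match (TGANTCA, in 7.81% of promoters) and a PU.1 match (GAGGAAGT, in 3.20%), and the Tlr13 promoter held none of these. These are matches of letters, not measured binding.

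All 9 genes are protein-coding and were placed with the GENCODE M21 annotation of GRCm38. Ly96 lies on chromosome 1 (16688051 to 16709611), Tlr2 on chromosome 3 (83836272 to 83841767), Tlr4 on chromosome 4 (66827584 to 66930284) and Tlr3 on chromosome 8 (45395665 to 45411080). Tlr9 lies on chromosome 9 (106222598 to 106226883), as does Myd88 (119335934 to 119341411), Cd14 on chromosome 18 (36725067 to 36726798), and Tlr13 and Tlr7 on chromosome X (106143204 to 106160493 and 167304929 to 167330558). None of the 57-base windows of their transcripts, the length of the reads, occurred in a transcript of another gene. Exons of Tlr3 and Myd88 overlap those of Gm45542 and Acaa1a on the opposite strand, and no exon of the 9 overlaps another gene on its own strand. The promoter windows shown above for Tlr3 and Myd88 lie wholly inside the gene spans given here. That of Tlr2 lies partly inside its span, with its RefSeq start inside as well. In Tlr2 the match at -8 to 2 falls inside the gene span and the matches at -173 to -163 fall just before it. Positions in Tlr2, Tlr3 and Myd88 thus count from a RefSeq start downstream of the outermost GENCODE start.

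Cd14 and Tlr2 were the most abundant of the genes, and the remaining 7 were far below Tlr2. Levels are UMIs per 1000000 UMIs of the cells (CPM); since 3' counting gives 1 UMI per captured molecule, they are not divided by transcript length. Cd14 was at 1371 CPM (1356 to 1386) in medial and 1269 CPM (1255 to 1284) in lateral microglia, from 32133 and 29252 UMIs. Tlr2, which forms heterodimers with Tlr1 or Tlr6 for bacterial lipoproteins, was at 531 CPM (521 to 540) in medial and 479 CPM (470 to 488) in lateral microglia. Intervals of the libraries do not overlap for either gene. Myd88 was at 56.0 CPM (53.0 to 59.1) in medial and 47.7 CPM (44.9 to 50.6) in lateral microglia, again without overlap. Tlr7, a sensor of single-stranded RNA, was at 50.3 CPM (47.4 to 53.2) in medial and 46.9 CPM (44.1 to 49.7) in lateral microglia. Ly96 was at 33.8 CPM (31.5 to 36.2) in medial and 33.7 CPM (31.3 to 36.1) in lateral microglia. Tlr13, which in mice recognises bacterial ribosomal RNA, was at 28.3 CPM (26.2 to 30.6) in medial and 32.0 CPM (29.7 to 34.4) in lateral microglia. For these last 3 genes the intervals of the libraries overlap.

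The other receptors were scarce. Tlr3, a sensor of double-stranded RNA, was at 8.36 CPM (7.23 to 9.62) in medial and 8.03 CPM (6.91 to 9.27) in lateral microglia. Tlr4 was at 8.19 CPM (7.07 to 9.43) in medial and 8.24 CPM (7.11 to 9.50) in lateral microglia. Tlr3 and Tlr4 did not differ from each other beyond counting error in either library. Tlr9, the sensor of unmethylated CpG DNA, had 10 UMIs in medial and 7 in lateral microglia, or 0.427 and 0.304 CPM. Myd88 and Tlr7 had overlapping intervals in both libraries, and Ly96 and Tlr13 in the lateral library only; in the medial library Ly96 stood above Tlr13.

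**Figure D1:**
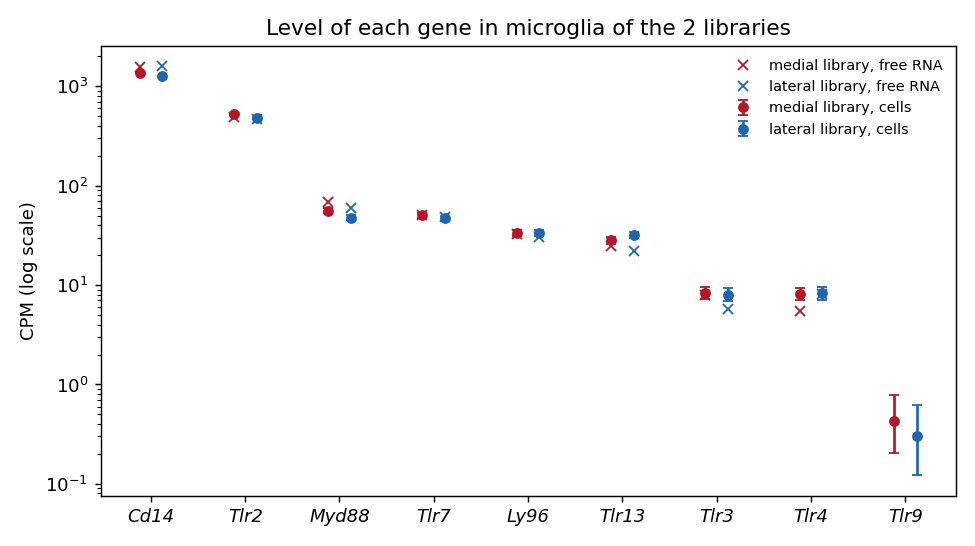
CPM (log axis) of the 9 genes, in order of their medial level, for the medial (red) and lateral (blue) library. Circles are cells with 95% Poisson intervals and crosses are free RNA; the genes run from 1371 CPM for Cd14 to 0.427 CPM for Tlr9 in medial cells, and both libraries keep nearly the same order.

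Free RNA held the same genes at similar levels. In barcodes of at most 100 UMIs, Cd14 was at 1559 CPM in the medial library and 1589 CPM in the lateral one, and Myd88 at 68.8 and 59.3 CPM, all above the cells. Tlr2 was at 486 CPM in medial and 469 CPM in lateral free RNA, and Tlr7 at 50.8 and 48.7 CPM. Tlr13 stood lower in free RNA than in cells, at 24.8 CPM in the medial and 21.8 CPM in the lateral library. Tlr9 had 0 UMIs in the free RNA of either library. Neither library holds a cell class that should lack these genes, so the part of free RNA in the shares of cells below was not tested.

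Cd14, Tlr2 and Myd88 were slightly higher and Tlr13 slightly lower in medial microglia, and the intervals of the ratios of Tlr3, Tlr4, Tlr7, Tlr9 and Ly96 included equality. Of the 9 genes, 8 had at least 100 UMIs over both libraries, the minimum for a ratio to be counted, and 0 of these 8 reached a ratio of 1.2 in either direction. Among all 9832 genes with that many UMIs, 14.9% did so, 7.41% higher and 7.5% lower in the medial library, so a count of 0 among 8 is near that background and is not a result about these genes. Myd88 had the highest log2 ratio of medial over lateral CPM, 0.23 (0.11 to 0.35), a 1.17-fold difference. The log2 ratio was 0.15 (0.11 to 0.18) for Tlr2, 0.11 (0.09 to 0.13) for Cd14 and 0.10 (-0.02 to 0.22) for Tlr7. It was 0.06 (-0.24 to 0.36) for Tlr3, 0.00 (-0.14 to 0.15) for Ly96 and -0.01 (-0.31 to 0.29) for Tlr4. Tlr13 was lower in medial microglia, with a log2 ratio of -0.17 (-0.33 to -0.02). The median over the 8 genes was 0.08, beside -0.04 over all 9832 genes, whose central 95% ran from -0.40 to 0.47. For Tlr9 the interval of the log2 ratio, from -1.05 to 2.12, leaves either direction possible.

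The small medial excess was absent for Cd14 and smaller for Tlr2 in 1 alternative weighting, chosen after seeing the data. With each of the 8 cell clusters described below given the same share of cells in both libraries, the log2 ratio of medial over lateral was -0.00091 for Cd14 and 0.04 for Tlr2. In the other alternatives it lay between 0.05 and 0.15 for Cd14 and between 0.12 and 0.23 for Tlr2. The part of cell states in the excess was not tested. The log2 ratio of Myd88 lay between 0.17 and 0.31 over the 15 alternatives to the counting of cells, depth and scaling, and that of Tlr13 between -0.27 and -0.12. Myd88 passed a ratio of 1.2 in 4 of these alternatives: with each cell counted alike, thinned, centred on the median gene, and without cells of at least 3 cell cycle UMIs. Tlr13 passed it in the lower direction with each cell counted alike, and Tlr3 was past it in opposite directions when thinned (-0.38) and without cells of at least 3 cell cycle UMIs (0.31).

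Nearly every cell held Cd14 and most held Tlr2. Cd14 had at least 1 UMI in 97.7% (96.9 to 98.3) of medial and 96.0% (95.1 to 96.7) of lateral cells, and in 85.1% of medial and 82.7% of lateral cells once each cell was thinned to 2400 UMIs. Tlr2 was seen in 93.3% (92.1 to 94.3) of medial and 88.4% (87.1 to 89.7) of lateral cells, and after thinning in 65.6% and 59.7%. The thinned share of Tlr2 was 5.89 percentage points higher in medial cells (3.05 to 8.73), that of Cd14 2.41 points (0.25 to 4.57) and that of Myd88 2.39 points (0.49 to 4.31). With 5000 UMIs per cell, the difference for Tlr2 was 2.46 points. Intervals are exact Clopper-Pearson for a share and Newcombe for a difference.

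The other genes were seen in a minority of cells. Myd88 was detected in 43.0% of medial and 34.8% of lateral cells, and after thinning in 13.1% and 10.7%. Tlr7 was detected in 39.5% of medial and 35.0% of lateral cells, but after thinning in 11.2% and 10.9%, a difference whose interval, -1.55 to 2.15 points, includes 0. Ly96 was detected in 29.7% of medial and 26.8% of lateral cells, and Tlr13 in 25.4% and 26.1%. Tlr4 was detected in 8.68% of medial and 7.63% of lateral cells, Tlr3 in 8.45% and 7.45%, and Tlr9 in 0.469% and 0.303%. Unthinned shares move with the depth of a cell, which was greater in the medial library.

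Cd14 varied widely from cell to cell. It had a median of 11 UMIs per medial and 8 per lateral cell, with a 90th percentile of 32 and 29.3 and a maximum of 141 and 109. Tlr2 had a median of 4 UMIs per medial and 3 per lateral cell and a maximum of 39 and 31. At 2400 UMIs per cell, the variance of Cd14 was 3.05 times its mean in medial and 3.004 times in lateral cells, above 99.6% and 99.5% of genes. That of Tlr2 was 1.43 times its mean in medial and 1.45 times in lateral cells, and that of the other 7 genes lay between 0.962 and 1.09 times the mean. The median over genes with at least 100 UMIs was 1.01 in both libraries. The other 7 genes averaged at most 0.143 UMIs per thinned cell, so few that this ratio says little about their variation between cells. Depth moved with Tlr2: in steps of 25% of cells from the shallowest to the deepest, its level was 492, 509, 503 and 572 CPM in the medial library and 399, 437, 451 and 539 CPM in the lateral library. The part of depth in the difference between libraries was not tested beyond the thinned values given above.

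**Figure D2:**
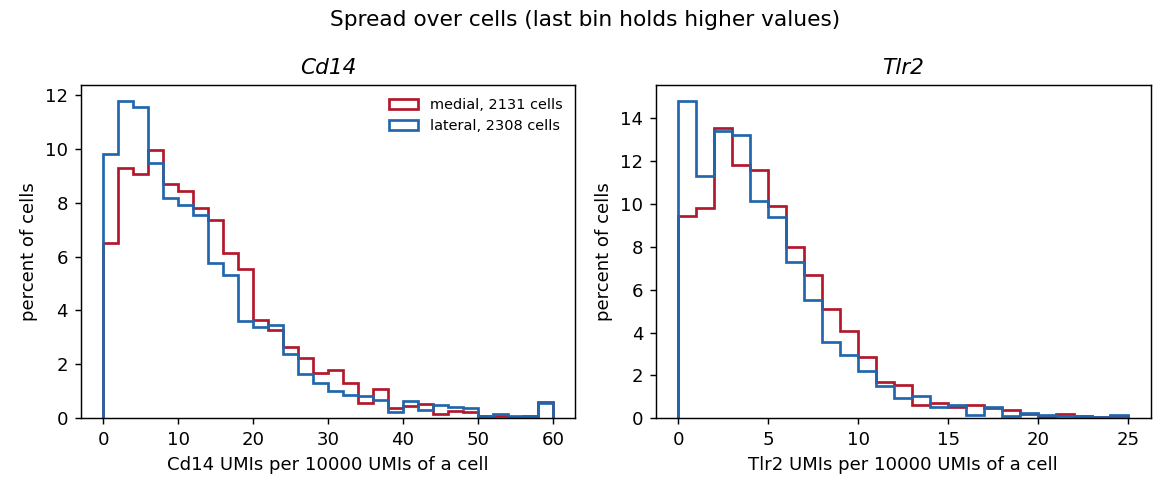
Percent of cells (vertical axis) against Cd14 or Tlr2 UMIs per 10000 UMIs of the cell, for 2131 medial (red) and 2308 lateral (blue) cells. Both genes spread in 1 broad hump, with medians of 11.5 and 9.78 per 10000 for Cd14 and 4.47 and 3.79 for Tlr2 in medial and lateral cells, and the lowest bins hold more of the lateral cells.

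Tlr2 made up most of the Toll-like receptor transcripts. Of the UMIs of 12 mouse Toll-like receptor genes, 15320 in medial and 13786 in lateral microglia, Tlr2 held 81.2% (80.6 to 81.8) in medial and 80.1% (79.4 to 80.7) in lateral microglia. Tlr7 held 7.69% in medial and 7.83% in lateral microglia, and Tlr13 4.33% (4.02 to 4.67) and 5.35% (4.98 to 5.73). The endosomal receptors Tlr3, Tlr7, Tlr9 and Tlr13 together held 13.4% in medial and 14.6% in lateral microglia. Tlr1 and Tlr6, the dimer partners of Tlr2, held 2.64% and 1.27% in medial and 2.61% and 1.11% in lateral microglia, so Tlr2 had 30.8 UMIs per Tlr1 UMI in medial and 30.7 in lateral cells. Within the Tlr4 complex, Ly96 had 4.13 UMIs (3.52 to 4.85) per Tlr4 UMI in medial and 4.08 (3.48 to 4.81) in lateral microglia, and Cd14 had 167 and 154. The Tlr7 to Tlr13 ratio was 1.77 (1.61 to 1.95) in medial and 1.47 (1.33 to 1.61) in lateral microglia, with intervals that meet at their ends. All of these are ratios of captured molecules and not of protein.

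The remaining genes of the pathway were read from lists, which were written with earlier results of these data known. Of 66 genes, 59 had at least 100 UMIs, and 12 of these were at least 1.2-fold higher and 1 at least 1.2-fold lower in medial microglia, beside 7.41% and 7.5% of all genes, with a median log2 ratio of 0.08, the same to this rounding as that of the 8 genes above. With the same cluster shares in both libraries, 7 of the 59 were higher and 2 lower, beside 705 higher and 557 lower of all 9832 genes. Those 705 and 557 genes are 12.8% of the 9832, so the 7 and 2 together are near that background. Among the other receptors, Tlr6 was at 8.28 CPM in medial and 6.64 CPM in lateral microglia, with a log2 ratio of 0.32 (0.00 to 0.63), and Tlr1 at 17.2 and 15.6 CPM, with a log2 ratio of 0.14. None of 11 measured folding, trafficking and accessory genes passed the ratio in either direction. Of all genes 14.9% did, so this count is near the background and is not a result about them. Unc93b1, which carries the nucleic acid sensors to endosomes, was at 485 CPM in medial and 469 CPM in lateral microglia. The protease Lgmn, which takes part in the cleavage of endosomal receptors, was at 2620 and 2808 CPM, and Ly86, the partner of the receptor homologue Cd180, at 2534 and 2804 CPM.

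Of 20 adaptors, kinases and ligases, 3 were higher and 1 lower in medial microglia. Of all genes 7.41% were higher and 7.5% lower, so these counts are near the background and are not a result about the list. Ikbke, an IKK-related kinase, was at 6.83 CPM in medial and 4.34 CPM in lateral microglia, with a log2 ratio of 0.65 (0.28 to 1.03), and Map3k7, the kinase TAK1, at 12.6 and 10.1 CPM. Tab1, a TAK1-binding protein, was at 6.27 CPM in medial and 8.16 CPM in lateral microglia, with a log2 ratio of -0.38 (-0.70 to -0.06). Map3k8, the most abundant of them, was at 93.1 CPM in medial and 91.1 CPM in lateral microglia.

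Of 11 transcription factors, 4 were higher and 0 lower in medial microglia, beside 7.41% and 7.5% of all genes. Nfkb1 was at 217 CPM in medial and 169 CPM in lateral microglia, a log2 ratio of 0.36 (0.30 to 0.42), and Atf3, an early stress-induced factor, at 414 and 300 CPM, a log2 ratio of 0.47 (0.42 to 0.51). Irf8, the most abundant, was at 434 CPM in medial and 448 CPM in lateral microglia. Of 15 measured brakes, 4 were higher and 0 lower, beside the same shares of all genes. Among the 4 were the phosphatase Dusp1 at 282 CPM in medial and 203 CPM in lateral microglia and Nfkbid at 150 and 117 CPM. Nfkbia, the inhibitor of NF-kB that NF-kB itself induces, was at 1355 CPM in medial and 1236 CPM in lateral microglia.

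Many genes known to be induced through Toll-like receptors were higher in medial microglia. Of 19 measured response genes, 12 were at least 1.2-fold higher and 0 lower in medial microglia, beside 7.41% and 7.5% of all genes, and their median log2 ratio was 0.34. With the same cluster shares in both libraries, an alternative chosen after seeing the data, 7 of the 19 were higher and 1 lower. Under that weighting 705 of all 9832 genes were higher and 557 lower. The chemokine Cxcl2 was at 802 CPM in medial and 482 CPM in lateral microglia, a log2 ratio of 0.73 (0.70 to 0.77), and Ccl3 at 1107 and 767 CPM, a log2 ratio of 0.53 (0.50 to 0.56). Ptgs2, which makes prostaglandins, was at 44.9 CPM in medial and 50.7 CPM in lateral microglia, and the activation marker Cd83 at 2225 and 2129 CPM. These genes are also induced by other signals, and their list too was written with earlier results of these data known. The 22 dissociation and immediate early genes moved with them: 17 of 21 measured were higher and 1 lower in medial microglia, with a median of 0.47, and they took 0.758% of medial and 0.599% of lateral UMIs. Their part in the result was not tested, and Atf3, Dusp1 and Zfp36 are in that list as well as in the pathway lists.

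**Figure D3:**
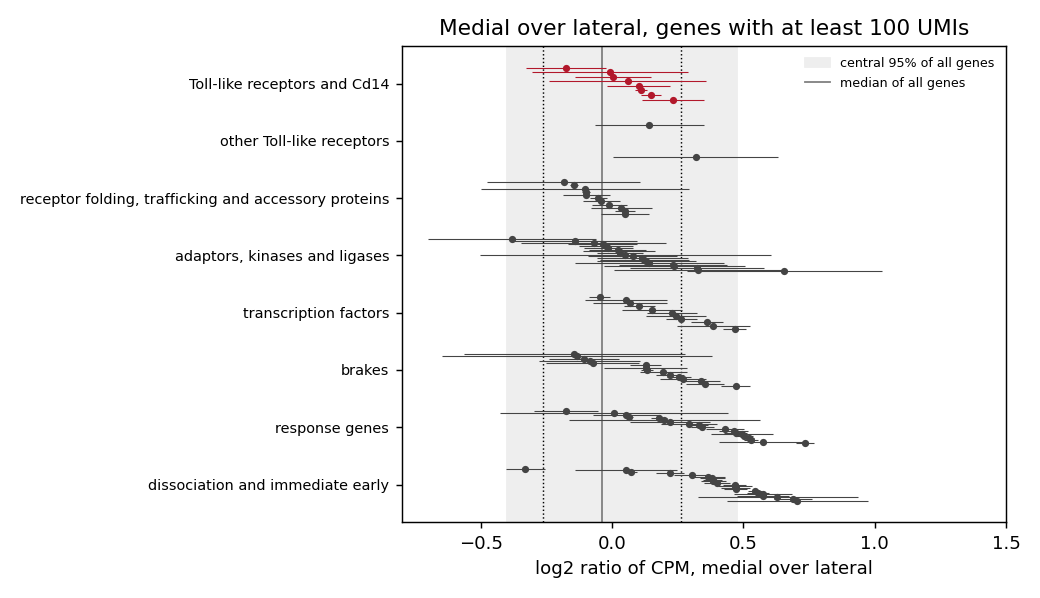
Log2 ratio of medial over lateral CPM (horizontal axis) for each gene with at least 100 UMIs, by list; the 8 genes described here are red, bars are 95% counting intervals, the grey band is the central 95% of all genes, the grey line their median and dotted lines a ratio of 1.2 either way. The 8 genes lie between -0.17 and 0.23, inside the dotted lines, while 12 of 19 response genes lie to the right.

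Cd14 and Tlr2 differed more between cell states than between regions. Cells of both libraries were clustered together without the 9 genes, which gave 8 clusters, called here by number and leading genes. Cd14 was highest in cluster 3, led by the MHC class II genes H2-Eb1, H2-Aa and Cd74, at 1691 CPM in medial and 1849 CPM in lateral cells. It was almost as high in cluster 2, led by Irak3 and P2ry2, at 1667 CPM in medial and 1718 CPM in lateral cells. It was lowest in cluster 4, led by Cd5l and Ms4a7, at 773 CPM (738 to 810) in medial and 689 CPM (662 to 717) in lateral cells. The highest cluster had 2.19 times the level of the lowest in the medial and 2.68 times in the lateral library.

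Tlr2 had another order. It was highest in cluster 6, led by Fos, Egr1 and Jun, at 724 CPM (694 to 754) in medial and 745 CPM (710 to 781) in lateral cells. It was lowest in cluster 4, as Cd14 was, at 292 CPM in medial and 299 CPM in lateral cells, so the range was 2.48-fold in the medial and 2.49-fold in the lateral library. Within clusters, Tlr2 was higher in medial cells in 6 of 8 clusters, with log2 ratios between -0.04 and 0.20, and its interval lay above 0 in 2. Cd14 was higher in medial cells in 5 clusters and lower in 3, with intervals wholly above 0 in 3 and wholly below 0 in 3. Its log2 ratio of medial over lateral was 0.30 (0.23 to 0.37) in cluster 5, led by the cell cycle genes Prc1 and Rrm2, and -0.21 (-0.28 to -0.15) in cluster 6. The regional difference of Cd14 thus did not have 1 direction over clusters.

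Tlr3 had its highest level in the smallest cluster. Cluster 8, led by the interferon-induced genes Ifit3b and Ifit1, had 29 medial and 20 lateral cells. Tlr3 was there at 44.3 CPM (24.8 to 73.1) in medial and 64.9 CPM (35.5 to 109) in lateral cells, from 15 of 196 medial and 14 of 185 lateral Tlr3 UMIs, so most of its transcripts lay in other clusters. In the other 7 clusters it was between 6.11 and 10.7 CPM in medial and between 4.26 and 10.1 CPM in lateral cells, so the intervals of cluster 8 lie above those levels in both libraries. At least 1 Tlr3 UMI was found in 41.4% of its medial and 35.0% of its lateral cells. Tlr3 is known as an interferon-induced gene. Myd88 was at 70.9 CPM in medial and 78.8 CPM in lateral cells of cluster 8, with wide intervals, and at 76.1 CPM (66.7 to 86.3) and 54.2 CPM (45.1 to 64.7) in cluster 6.

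Tlr7, Tlr13 and Ly96 also varied over clusters. Tlr7 ran from 44.3 to 62.5 CPM in medial cells, with overlapping intervals at the ends. In lateral cells it was lowest in cluster 3, at 36.4 CPM (29.4 to 44.6), and at 67.0 CPM (56.8 to 78.6) in cluster 6, without overlap; the 20 lateral cells of cluster 8 were at 69.5 CPM with a wide interval. At coarser and finer clustering, resolutions of 0.3 and 1, the lateral range of Tlr7 was 1.98-fold and 2.00-fold, without overlap at the ends. Ly96 ran from 26.4 to 44.5 CPM in medial cells, from cluster 6 to cluster 3, without overlap, and from 27.2 to 46.4 CPM in lateral cells, with overlap. Tlr13 was lowest in medial cells in cluster 1, at 22.8 CPM (18.1 to 28.3), against 32.9 CPM (27.7 to 38.7) in lateral cells of that cluster, which is led by Slc39a1 and Actb and has the lowest depth, a median of 5951 UMIs. Its highest medial level, 36.6 CPM (29.2 to 45.4) in cluster 4, did not overlap the lowest.

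**Figure D4:**
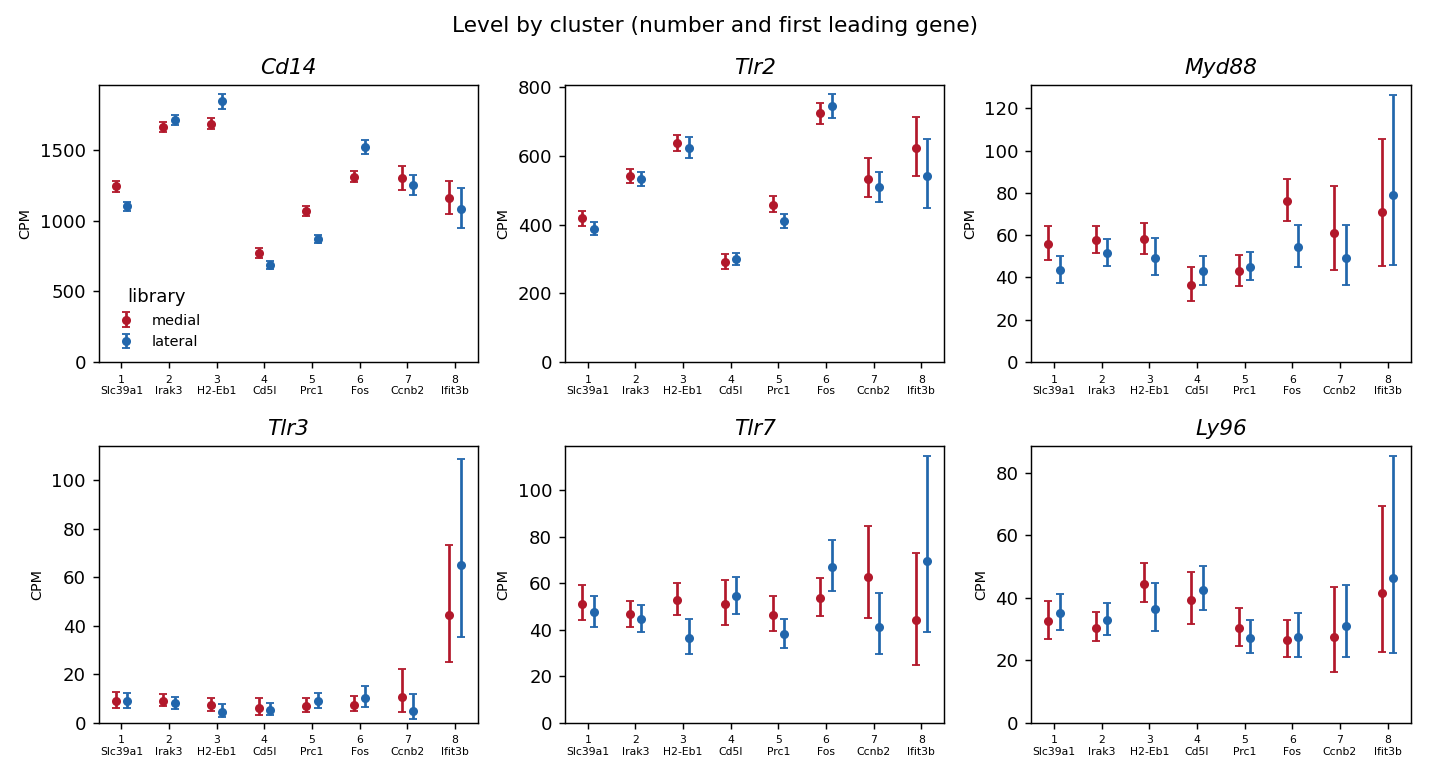
CPM (vertical axes, from 0) of 6 genes in the 8 clusters, labelled by number and first leading gene, in medial (red, left) and lateral (blue, right) cells with 95% Poisson intervals. Cd14 and Tlr2 differ over 2-fold between clusters, and Tlr3 is highest in cluster 8, at 44.3 and 64.9 CPM.

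The same genes were followed along graded states, by ranking the cells of each library on the share of their UMIs in a list and setting the top against the bottom 25%, 533 medial and 577 lateral cells in each. Along the response genes Cd14 was at 1669 CPM in the top and 775 CPM in the bottom 25% of medial cells, a log2 ratio of 1.11 (1.06 to 1.16). In lateral cells it was at 1723 CPM in the top and 570 CPM in the bottom 25%, a log2 ratio of 1.60 (1.54 to 1.65). Tlr2 was at 732 and 321 CPM in medial cells, a log2 ratio of 1.19 (1.11 to 1.27), and at 640 and 275 CPM in lateral cells, a log2 ratio of 1.22 (1.13 to 1.31). Myd88 followed with log2 ratios of 0.63 (0.40 to 0.87) in medial and 0.58 (0.32 to 0.84) in lateral cells. Tlr7 did not move with the response genes, at -0.01 in both libraries, and the intervals of Ly96, Tlr13 and Tlr4 all included 0. Median depth in the top and bottom 25% was 11198 and 10616 UMIs in medial and 9931 and 9159 in lateral cells. It was less even along other lists in lateral cells, at 10749 and 8158 UMIs for the disease-associated, 10355 and 8248 for the homeostatic and 10237 and 7358 for the MHC class II genes, while medial cells had 9711 and 10252, 9731 and 10477, and 9721 and 10137 along the same lists. The part of depth in the values along lists was not tested.

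Other lists gave other patterns. Along the immediate early genes the log2 ratio was 0.87 in medial and 0.96 in lateral cells for Tlr2, 0.77 and 0.56 for Myd88, and 0.38 and 1.05 for Cd14, which differed most between the libraries. Along the disease-associated microglia genes, such as Apoe and Lpl, Ly96 had a log2 ratio of 0.66 (0.36 to 0.97) in medial and 0.56 (0.26 to 0.88) in lateral cells, and Cd14 had 0.79 and 0.78. Along the homeostatic genes Tlr2 had 0.75 in medial and 0.71 in lateral cells, and Cd14 0.58 and 0.56. Along the interferon genes Tlr3 had 0.45 (-0.13 to 1.04) in medial and 0.75 (0.16 to 1.35) in lateral cells. Along the cell cycle genes Cd14 was lower in the top 25%, with a log2 ratio of -0.36 in medial and -0.61 in lateral cells. Tlr4 had 0.88 (0.25 to 1.54) along that list in medial cells, from 69 UMIs in the top and 31 in the bottom 25%, but -0.11 (-0.70 to 0.48) in lateral cells. A share of UMIs in 1 list constrains the share left for other genes. The residual correlations described below, which do not rank cells, were -0.02 in both libraries for Cd14 with the homeostatic list, and 0.18 in medial and 0.15 in lateral cells for Tlr2. With the immediate early list they were 0.02 in medial and 0.13 in lateral cells for Cd14, and 0.27 and 0.30 for Tlr2.

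**Figure D5:**
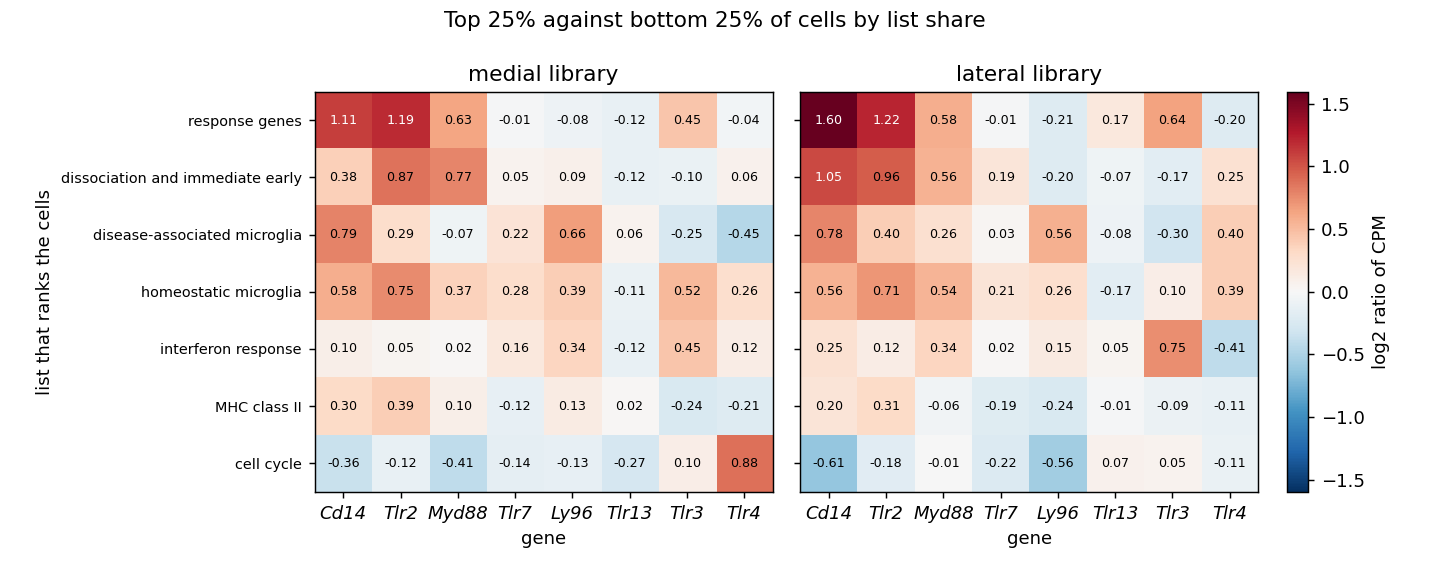
Log2 ratio of CPM between the top and bottom 25% of cells (colour and printed value) for 8 genes (columns) along 7 lists (rows), in the medial (left) and lateral (right) library; Tlr9 is left out for its 17 UMIs. Cd14 and Tlr2 are above 1.1 along the response genes in both libraries, and Tlr7 is at -0.01.

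Cd14 and Tlr2 varied together across cells. Pearson's r of their depth-adjusted residuals was 0.34 over 2131 medial and 0.40 over 2308 lateral cells. The other 35 of the 36 gene pairs lay between -0.04 and 0.05 in medial and between -0.03 and 0.14 in lateral cells. In such sparse counts these values are not read as a relation or as the lack of one. Cells of 1 library share depth and free RNA, and these values are a description with no test. After thinning, 57.9% of medial and 50.9% of lateral cells held both Cd14 and Tlr2, beside 55.8% and 49.3% given by the product of the separate shares. With the response genes, r was 0.31 (medial cells) and 0.37 (lateral cells) for Cd14, and 0.41 and 0.36 for Tlr2. Tlr3 had an r of 0.12 in medial and 0.22 in lateral cells with the interferon genes, also from sparse counts.

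Among 8456 other genes, those most like Cd14, by the lower r of the libraries, were Gpr84 (r of 0.40 in medial and 0.41 in lateral cells), Il1b (0.38 and 0.46), Bcl2a1b (0.37 and 0.37), Cd83 (0.33 and 0.38) and Ccrl2 (0.33 and 0.31). Bcl2a1b has near-identical copies, so its counts are uncertain. Among those most like Tlr2 were Cd83 (0.33 in medial and 0.37 in lateral cells), Hspa5 (0.33 and 0.37), Gpr84 (0.33 and 0.32) and Nfkbiz (0.31 and 0.33). For Cd14 the 99th percentile of r over all ranked genes was 0.13 (medial cells) and 0.15 (lateral cells), and for Tlr2 0.19 and 0.18. Gpr84, Cd83, Il1b and Nfkbiz are also in the response list. By the lower r, Myd88 was most like Cd83, at 0.16 in medial and 0.11 in lateral cells. For Tlr7, Tlr13 and Ly96 the most alike genes had a lower r of at most 0.08, which is not read as a likeness.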

How the data were processed

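The deposited values are raw UMI counts per gene and barcode for 737280 barcodes per library, which the authors made, per the submitters' processing notes, with Cell Ranger 2.0.1, STAR and mm10; no source used here states the annotation version. From these counts, cells were called (at least 2400 UMIs, at most 10% mitochondrial), UMIs were summed per library, and CPM with exact Poisson intervals and ratios with exact conditional binomial intervals were computed in Python 3.11.15 with scipy 1.17.1. Cells were thinned to 2400 UMIs for shares. Clustering used scanpy 1.11.5 (2000 variable genes without the 9 genes, 30 principal components, 15 neighbours, resolution 0.6). Correlations used Pearson residuals with theta of 100, for genes with at least 500 UMIs per library where the most alike genes were ranked. Doublets were kept; Scrublet marked 6 medial and 3 lateral cells, too few to have worked. From each list the text names, as far as it names any, the 2 genes with the interval bound farthest from a ratio of 1 in each direction and the gene with most UMIs; Zfp36 was added. Of the most alike genes it names the first 5, and of each cluster's leading genes up to 5; 1 gene ranked for Tlr2 is not reported here. The 56 symbols shared by several gene IDs were left out of the counts over all genes. Acod1 was matched by gene ID. The genes and lists were chosen with earlier results of these data known. Scripts were tested on simulated data. Alternatives covered cell calling, depth, scaling, doublets, cells with cell cycle UMIs, free RNA, thresholds, resolution and weighting by cluster.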

Additional observations from a re-analysis of the deposited data

Results flagged for a closer look

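Barcodes between free RNA and cells, with 101 to 2399 UMIs, were not counted as cells, yet held the 9 genes; those with at least 1000 UMIs entered 1 alternative. They had 2712 UMIs of these genes in the medial library, or 3302 CPM, and 2241 in the lateral library, or 3066 CPM. Cd14 was at 2358 CPM in these medial and 2292 CPM in these lateral barcodes, above its level in cells and in free RNA of the same libraries, and Tlr2 was at 699 and 595 CPM.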

How the results depend on the processing

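Of 281 recomputed values, 232 stayed within counting error or within 1.5 times the count, 48 moved beyond that, and 1 whose interval had excluded 0 changed sign. Signs of the smaller log2 ratios were less stable: over 15 alternatives Ly96 kept its sign in 9, Tlr4 in 10, Tlr3, Tlr7, Tlr9 and Cd14 in 14 each, and Tlr2, Tlr13 and Myd88 in all 15. With clusters equally weighted, an alternative chosen after seeing the data, the log2 ratio was -0.00091 for Cd14 and 0.037 for Tlr2, 7 pathway genes were higher and 2 lower, and 7 response genes were higher and 1 lower. Without cluster 6, also chosen after seeing the data, Cd14 was at 0.15. Thinned to 2400 UMIs, log2 ratios were 0.23 for Tlr2, -0.38 for Tlr3, -0.032 for Tlr7, 0.15 for Cd14 and 0.21 for Ly96. Of the 8 genes with at least 100 UMIs 1 was then higher (Myd88) and 1 lower (Tlr3). Of the pathway genes 15 were higher and 4 lower, and of the response genes 12 were higher and 1 lower. With each cell counted alike, Cd14 was at 0.15, 1 gene was higher (Myd88) and 1 lower (Tlr13), and 11 pathway genes were higher and 3 lower. Centred on the median gene, a shift of 0.04, Tlr2 was at 0.19, Cd14 at 0.15, 1 gene was higher (Myd88), and 927 of all genes were higher and 536 lower, against 729 and 737 without centring. Without cells of at least 3 cell cycle UMIs after thinning (1078 medial and 1273 lateral cells left out, not all of them shown to be in cycle), Cd14 was at 0.051, Tlr9 at -1.15 and 2 genes were higher (Tlr3 and Myd88). At a ratio of 1.1, 2 of the 8 genes were higher and 1 lower, 22 pathway genes were higher and 5 lower, and 15 response genes were higher and 1 lower. Of all genes, 40.9% passed 1.1 in either direction. At 1.5, 1 pathway gene was higher and 0 lower, and 1 response gene was higher, beside 2.16% of all genes. With at least 30 UMIs per gene 12 pathway genes were higher and 2 lower, and with no minimum 1 of the 9 genes was higher (Tlr9). Of all genes, 20.7% passed 1.2 at that minimum and 31.6% with none. The share of all genes past 1.2 was 31.4% thinned and 18.2% with each cell counted alike. It was 23.7% without cells of at least 3 cell cycle UMIs and 12.8% with clusters equally weighted, beside 14.9% in the main counting. Counts near those shares are not results about these genes. Differences in share of cells were 2.46 points for Tlr2 at 5000 UMIs and, without thinning, 0.994 for Tlr3, 1.06 for Tlr4, 4.50 for Tlr7, 2.84 for Ly96 and 8.15 for Myd88. With the top and bottom 10% of cells in place of 25%, log2 ratios along the response genes were 1.84 in medial and 2.48 in lateral cells for Cd14, 1.90 and 1.97 for Tlr2 and 1.02 and 0.84 for Myd88, and along the interferon genes 1.79 for Tlr3 in medial cells. The cause was not tested. No paired analysis was possible because each region has 1 library. Depth limits Tlr9, Tlr3 and Tlr4 most.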
